A study of Ciona robusta with 12 samples.

Results

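The genes described here are 65 gene models of the tunicate Ciona robusta, of 15284 in the deposited tables, chosen by their measured values as higher in embryos treated with U0126 than in carrier controls at the 112-cell stage and within a looser bound at the 64-cell stage. Embryos from fertilized eggs without their chorion received U0126, labelled as 4 mM, or DMSO alone, labelled as a 1:1000 dilution, at the 32-cell stage. Whole embryos were taken at 64 or at 112 cells, which gives 4 groups of 3 libraries, each made from 300 embryos. The labels give no genotype, strain or clutch for any group, and the replicates are described as biological. A gene belonged to the set when 3 conditions held on CPM (a gene's count divided by the library's total, times 1000000). Its mean in the 112-cell U0126 libraries was at least 3 CPM. It was at least 1.5-fold higher in U0126 than in DMSO in each of the 3 pairs of libraries with the same replicate number at 112 cells. At 64 cells its ratio of means was under 1.4, or its mean in U0126 embryos was under 3 CPM. The values at 112 cells and the ratio at 64 cells therefore chose the genes and are given as a description.

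U0126 inhibits MEK, the kinase that activates ERK. In the early ascidian embryo FGF signals act through MEK and ERK to induce notochord, neural and mesenchyme fates. When the signal is blocked, the cells that would have received it are known to take other fates, so that presumptive notochord takes a nerve cord fate. The tables name genes by KH2012 identifiers, and the files do not pair these with gene names. The 65 genes are therefore given by identifier, without roles, and neither lists of tissue markers nor the whole-embryo label could be checked by name. CPM is not scaled to transcript length, so levels are compared between libraries and not between genes. In whole-embryo RNA, more cells that express a gene and more RNA per cell cannot be told apart.

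The libraries held 10623872 to 15956670 reads over genes, so 1 CPM stands for 10.6 to 15.96 reads. DMSO replicate 3 at 112 cells, the shallowest library, stood apart. Of the 9561 genes at or over 3 CPM in the 112-cell U0126 libraries, 166 were at least 4-fold lower in it than in each of the 11 other libraries. None of the 65 genes was among these 166. The comparison takes in the 64-cell libraries, where 31 of the 65 had a mean under 1 CPM in DMSO embryos. Such genes could hardly meet it, so nothing is read from their absence. At 112 cells DMSO replicate 3 was at most 0.5 times the mean of DMSO replicates 1 and 2 in 8 of the 65. That is 12.3%, against 10.6% of the 9561 genes. Pair 3, which contains this library, put 17.7% of the 9561 genes at or over 1.5-fold, against 2.65% in pair 1 and 1.998% in pair 2. The median ratio of the 9561 genes was 0.956 in pair 1, 0.974 in pair 2 and 0.833 in pair 3, so on this scale the typical gene lay somewhat below 1. Pairs 1 and 2 are therefore given apart from pair 3.

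Of the 9561 genes, 76 were at least 1.5-fold higher with U0126 in all 3 pairs (0.795%), and 11 of these were removed because they were also higher at 64 cells. With pair 3 not asked, 91 genes met the rule. The 26 genes added in this way had pair 3 ratios of 0.434 to 1.49, and 21 of them were above 1. Among the 65 genes the median ratio was 2.52 in pair 1, 2.14 in pair 2 and 2.495 in pair 3. The ratio was at least 2 for 52 genes in pair 1, for 39 in pair 2 and for 45 in pair 3. It was at least 2 in both pair 1 and pair 2 for 33 genes, in all 3 pairs for 29, and at least 3 in all 3 pairs for 6. The ratio ran from 1.54 to 12.8 in pair 1 and from 1.52 to 9.12 in pair 2. In pair 3 it ran from 1.56 to 23.2 among the genes with more than 3 reads in the DMSO library.

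**Figure D1:**
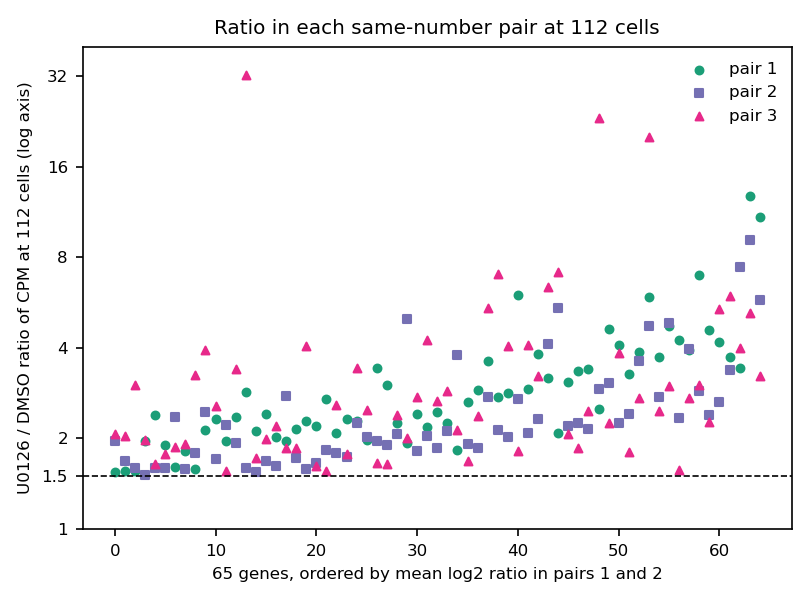
Each of the 65 genes has 3 points, the U0126 to DMSO ratio of CPM at 112 cells in pairs 1, 2 and 3, on a log axis, with genes ordered by their mean log2 ratio in pairs 1 and 2 and a dashed line at the 1.5-fold threshold. Pairs 1 and 2 span 1.52 to 12.8 between them and differ from each other in some genes, such as KH.C10.175 at 6.02 and 2.70. Several points of pair 3 stand far above the pairs 1 and 2 of the same gene. The highest of the 3 ratios was that of pair 1 in 27 genes, pair 2 in 8 and pair 3 in 30.

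The lowest U0126 library lay above the highest DMSO library at 112 cells in 58 of the 65 genes. Among the 9561 genes this held for 6.55%, and since the rule used this contrast nothing is read from the difference. The other 7 genes had overlapping groups and kept the order within each pair. KH.C8.716 was one of them, with 0.877, 7.51 and 6.02 CPM in the DMSO libraries and 6.14, 21.5 and 18.2 CPM in the U0126 libraries. Replicate 1 was the lowest in both groups, and U0126 replicate 1 lay below DMSO replicate 2. Summed, the 65 genes held 1362, 1535 and 1369 CPM in the 112-cell DMSO libraries and 3293, 3047 and 3664 CPM in the U0126 libraries. At 64 cells they held 683, 777 and 711 CPM in DMSO and 739, 915 and 816 CPM in U0126 embryos.

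**Figure D2:**
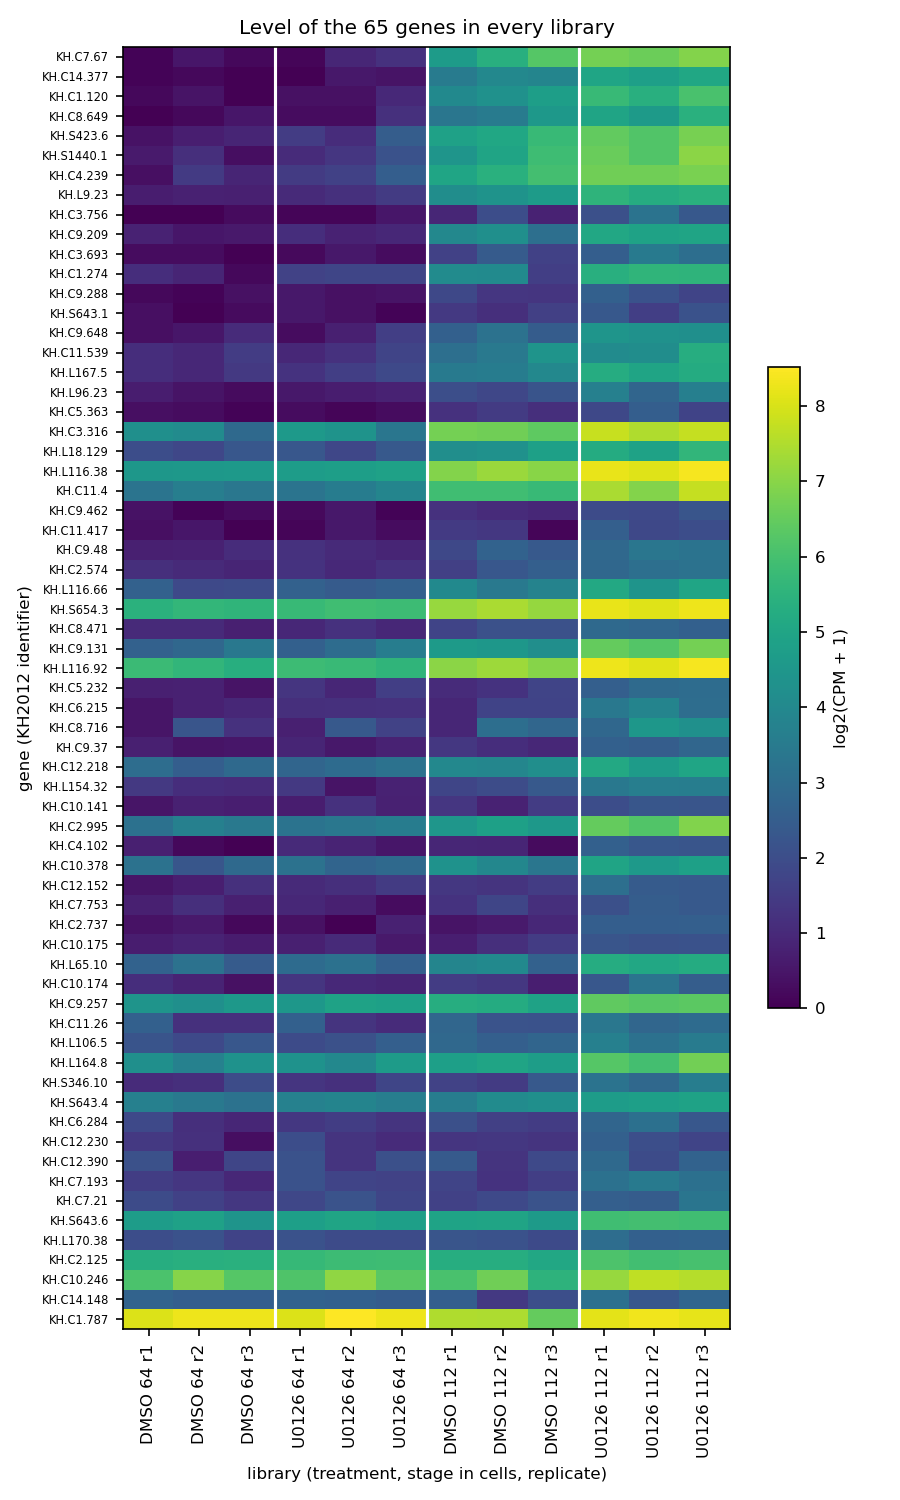
Every row is 1 of the 65 genes and every column 1 of the 12 libraries, coloured by log2(CPM + 1), with rows ordered by the ratio of the mean DMSO level at 112 cells to that at 64 cells. The 3 rightmost columns, U0126 at 112 cells, are the brightest in nearly all rows, and the upper rows are dark in both 64-cell groups.

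Limma, applied to log2(normalized count + 1) of the 6 libraries of the stage, called 17 of the 65 genes higher at 112 cells at a Benjamini-Hochberg adjusted p under 0.05. Over all 11315 genes tested it called 0.203% higher, 23 genes in number, and this contrast chose the 65. With the replicate number as a block 4 of the 65 were called, 3 of them among the 17, where 0.0354% of all genes were called higher. The edgeR fit with the block also called 4 (0.0354% of all genes), and DESeq2 called 41 (0.681%). Leaving out DMSO replicate 3 gave 30 calls, leaving out U0126 replicate 2 gave 3, and leaving out DMSO replicate 1 gave 1. Leaving out DMSO replicate 2, U0126 replicate 1 or U0126 replicate 3 gave 0. In the blocked fit without replicate 3 of both groups all 64 genes tested were called. That fit called 7.33% of all 10839 genes higher and had 1 residual degree of freedom. The authors' deposited regularized log2 values come from the same libraries that chose the genes, so their direction is a description and not a separate test. In them the mean difference between U0126 and DMSO at 112 cells was positive for all 65 genes. Its median was 0.74 and its range 0.32 to 1.32, against a median of 0.0066 over the 9561 genes.

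The genes furthest apart at 112 cells were of both low and moderate abundance. KH.C2.737 had the largest ratio of means, 7.89. It stood at 0.376, 0.537 and 0.941 CPM in the DMSO libraries and at 4.81, 4.89 and 4.93 CPM in the U0126 libraries. The U0126 libraries held 65 reads each, and the DMSO libraries 6, 7 and 10. At 64 cells it was near the floor in both treatments, with 2 to 7 reads in the DMSO libraries and 0 to 10 in the U0126 libraries. KH.C6.215 stood at 0.877, 2.30 and 2.26 CPM in DMSO and at 9.54, 13.3 and 7.28 CPM in U0126 embryos at 112 cells, a ratio of means of 5.53. KH.C7.193 stood at 2.32, 1.38 and 1.98 CPM in DMSO and at 7.98, 10.24 and 7.88 CPM in U0126 embryos. Neither of these genes had overlapping groups at 112 cells, and at 64 cells both were already higher with U0126 without overlap, by ratios of means of 1.85 and 1.81.

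KH.C9.131 and KH.C2.995 had the largest ratios of means among genes above 50 CPM with U0126. KH.C9.131 stood at 23.8, 21.9 and 17.6 CPM in DMSO and at 88.7, 74.2 and 104 CPM in U0126 embryos at 112 cells. Earlier, at 64 cells, it stood at 5.24, 6.21 and 9.54 CPM in DMSO and at 5.14, 7.08 and 11.3 CPM in U0126 embryos. The treatments thus overlapped at 64 cells, with replicate 3 highest in both, and were 4.22-fold apart by their means at 112 cells. KH.C2.995 stood at 21.3, 27.6 and 22.2 CPM in DMSO and at 89.0, 72.8 and 120 CPM in U0126 embryos at 112 cells. Earlier, at 64 cells, it stood at 8.10, 12.2 and 9.92 CPM in DMSO and at 8.52, 9.46 and 10.997 CPM in U0126 embryos, a ratio of means of 0.959. Its groups were 3.96-fold apart at 112 cells and overlapped at 64 cells.

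**Figure D3:**
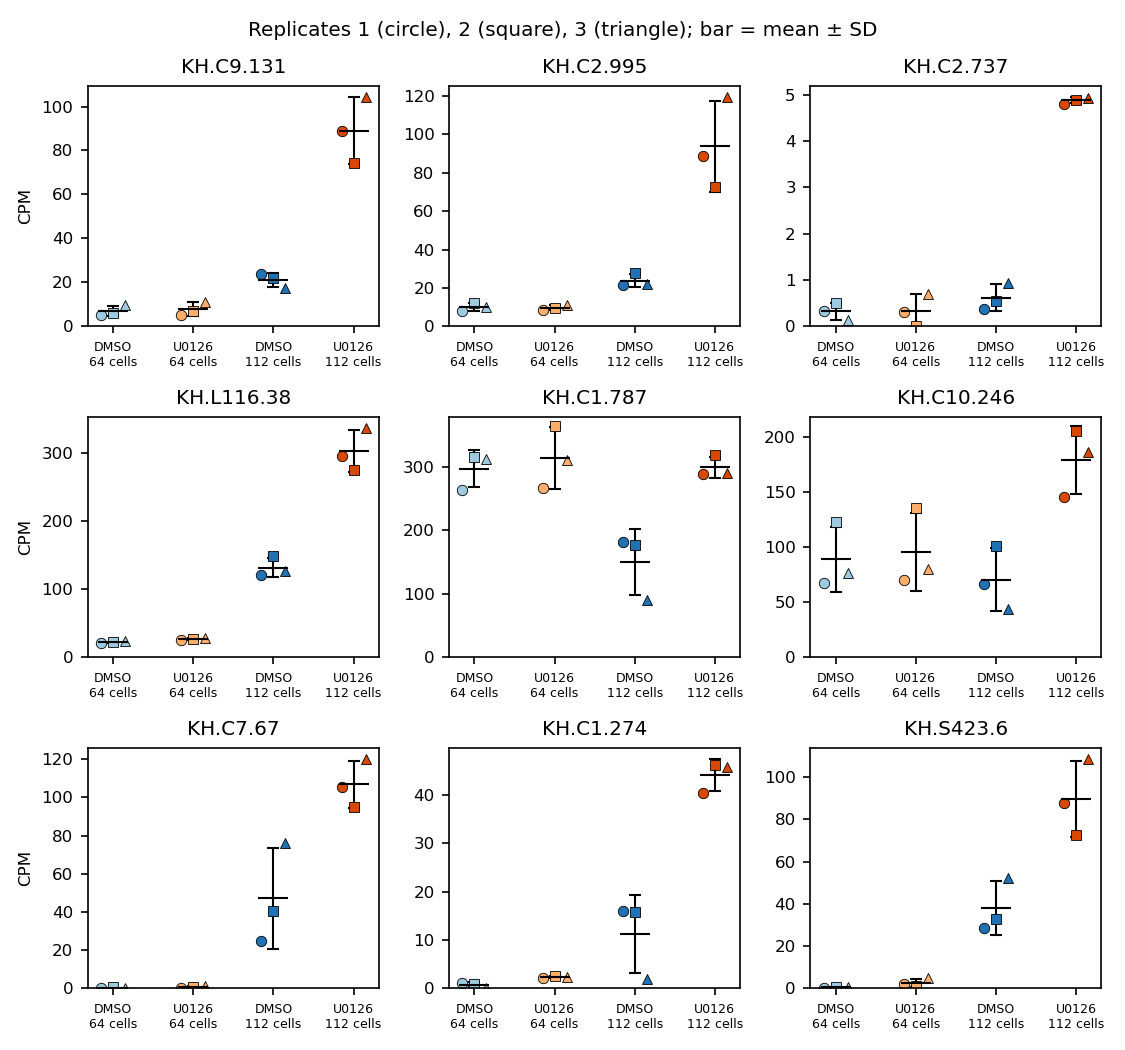
CPM in every library for 9 of the 65 genes, with circles, squares and triangles for replicates 1, 2 and 3 and bars for the mean ± SD of 3 libraries per group. KH.C9.131 and KH.C2.995 overlap at 64 cells and part at 112 cells, KH.C1.787 is lower at 112 than at 64 cells in DMSO embryos, and KH.C1.274 has 1 low DMSO library at 112 cells.

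The 64-cell condition of the rule was met in different ways. The ratio of means at 64 cells was under 1.4 in 40 genes, with a median of 1.13 and a range of 0.696 to 1.396. Of these, 22 were at or over 3 CPM in U0126 embryos at 64 cells and 18 were below it. The other 25 genes had a ratio of 1.45 to 4.22, with a median of 1.99, and belonged to the set because they were under 3 CPM. In 19 of these 25 all 3 pairs were higher with U0126 at 64 cells, and in 7 the groups did not overlap. Over all 65 genes, 33 were higher in all 3 pairs at 64 cells and 10 had groups that did not overlap, where the shares among the 9561 genes were 9.72% and 0.962%. The rule limited these values, so nothing is read from the counts, but a difference at 64 cells was not absent from the set.

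KH.S423.6 had the largest ratio of means at 64 cells, 4.22. It stood at 0.341, 0.642 and 0.821 CPM in DMSO and at 1.84, 1.12 and 4.65 CPM in U0126 embryos, or 5, 9 and 13 reads against 24, 15 and 66. The groups did not overlap. Later, at 112 cells, it stood at 28.4, 32.9 and 52.3 CPM in DMSO and at 87.7, 72.4 and 108 CPM in U0126 embryos, a ratio of means of 2.36. KH.C4.239 was similar, with 0.272, 1.71 and 0.821 CPM in DMSO and 1.76, 2.16 and 4.86 CPM in U0126 embryos at 64 cells. Later, at 112 cells, it stood at 31.0, 41.4 and 61.9 CPM in DMSO and at 101, 100.2 and 112 CPM in U0126 embryos. For both genes the ratio of means was larger at 64 cells, where the level was low, than at 112 cells. For a gene of moderate abundance the condition was met narrowly. KH.C2.125 stood at 38.5, 40.3 and 41.3 CPM in DMSO and at 51.5, 55.6 and 57.0 CPM in U0126 embryos at 64 cells, a ratio of means of 1.37 without overlap.

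**Figure D4:**
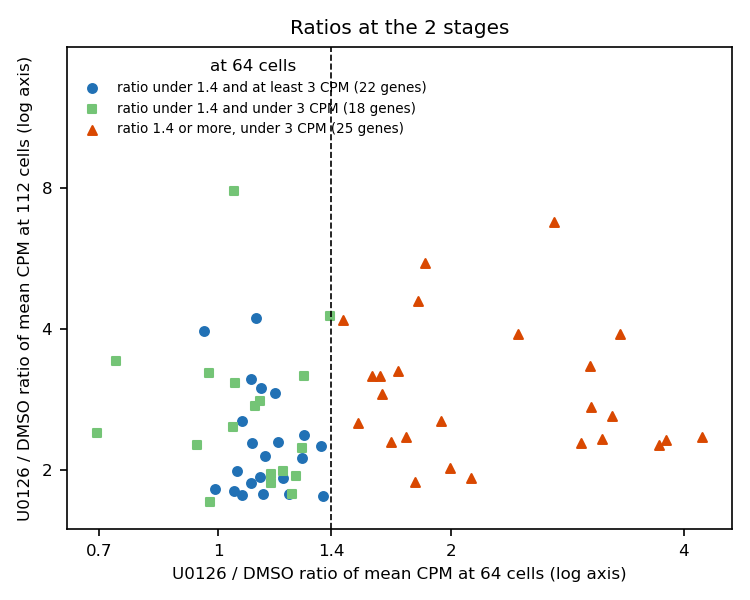
Each point is 1 of the 65 genes, with its U0126 to DMSO ratio of mean CPM at 64 cells on the horizontal and at 112 cells on the vertical log axis, and a dashed line at 1.4. The 25 triangles to the right of the line, at 1.45 to 4.22, are genes under 3 CPM in U0126 embryos at 64 cells.

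At 64 cells 46 of the 65 genes passed the filter on low values (3 of the 6 libraries at a normalized count of 10 or more). Limma called 0 of these 46, with 8 at an unadjusted p under 0.05, and called 0.0% of all 10792 genes higher. EdgeR and DESeq2 called 0 of the 46 too, against 0.0% and 0.0371% of all genes. With the replicate block limma called 9 of the 46 higher, where 0.695% of all genes were, and edgeR called 9, where 0.602% were. Without replicate 3 of both groups the blocked limma count was 1, against 0.335% of all genes. Of the 9 called by limma with the block, 5 had belonged to the set through their low level (KH.C1.274, KH.C4.239, KH.C7.193, KH.S1440.1 and KH.S423.6). The other 4 had a ratio under 1.4 (KH.C2.125, KH.C3.316, KH.C9.257 and KH.S654.3). KH.C7.193 was called in 1 of its 15 fits, this one, so the 9 of edgeR were not the same genes throughout. KH.C1.274 and KH.C9.257 are named here after their values were seen. The label of the set as raised at 112 cells alone thus did not hold for the 9 genes in the blocked limma fit. Whether the effect of U0126 differed between the stages was fitted for all 65 genes. Limma called 1, KH.C2.995, the only gene of all 11650 (0.00858%) called in that direction. DESeq2 called 7 of the 65 and 8 of all genes (0.0689%). The blocked fit without replicate 3 called 11 of the 64 genes tested and 17 of all genes (0.15%). The values of both stages had chosen the 65, so these counts are a description and nothing is read from the shares. In the limma fit a difference between the stages was not shown for the other 64.

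The rule set no bound on the change between the stages, yet it is not independent of it. Choosing genes that are low in the DMSO libraries lowers their change in DMSO embryos, and choosing genes that are high in the U0126 libraries raises their change in U0126 embryos. The rule also let 25 genes in because they were under 3 CPM in U0126 embryos at 64 cells while at or over 3 CPM at 112 cells, which fixes a rise in U0126 embryos and a low start in DMSO embryos. The counts over the 65 genes are therefore a description. Stage also coincides with the deposited table, and the 2 tables were put on 1 scale by median-of-ratios factors. In DMSO embryos limma called 34 of the 65 genes higher at 112 than at 64 cells, or 52.3%, where 5.38% of all 11650 genes were. It called 1 lower, where 2.21% of all genes were. With the replicate block 40 were called higher, against 9.90% of all genes. The median log2 change of the 65 genes was 1.401 in DMSO embryos, against 0.00 over all genes tested. With a library left out the number called in either direction was 31 to 36. In CPM, 43 of the 65 had a mean at 112 cells at least 2-fold that at 64 cells in DMSO embryos, where 5.39% of the 9561 genes did. Of these 43, 22 were among the 25 genes let in by their low level, and so were 17 of the 34 called. Among the 22 genes at or over 3 CPM in U0126 embryos at 64 cells, 11 were called higher at 112 cells in DMSO embryos.

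**Figure D5:**
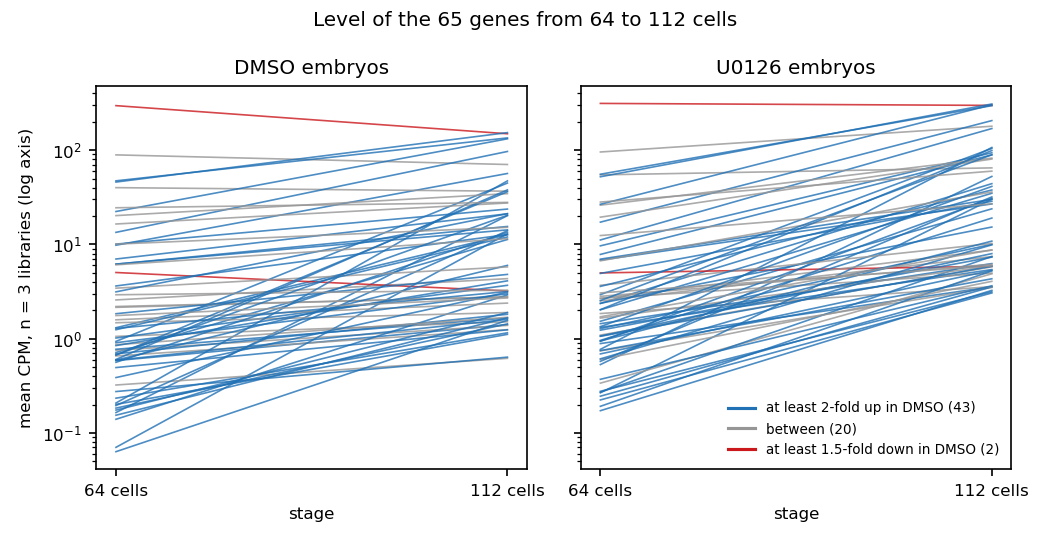
Mean CPM of the 65 genes at 64 and 112 cells in DMSO embryos (left) and U0126 embryos (right), on a log axis, with 1 line per gene and n = 3 libraries per mean. Of the lines, 43 go up at least 2-fold in DMSO embryos, 2 go down at least 1.5-fold and 20 lie between, and 58 go up at least 2-fold in U0126 embryos.

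In U0126 embryos 55 of the 65 genes were called higher at 112 cells, where 4.90% of all genes were, and the median log2 change was 2.86. With the replicate block 61 were called, against 8.32% of all genes. In CPM, 58 of the 65 were at least 2-fold higher at 112 than at 64 cells in U0126 embryos, where 4.80% of the 9561 genes were. Of the 58, 24 were among the 25 let in by their low level. Among the 22 genes at or over 3 CPM at 64 cells, 18 were called higher and 17 were at least 2-fold higher in U0126 embryos. The 34 genes that rose in DMSO embryos all rose in U0126 embryos too. Their median levels were 0.779 CPM in DMSO and 1.44 CPM in U0126 embryos at 64 cells, and 13.7 and 33.4 CPM at 112 cells. A further 21 genes passed the test in U0126 embryos and not in DMSO embryos, with log2 changes of 0.14 to 1.77 in DMSO and 1.00 to 4.23 in U0126 embryos. With the replicate block 5 of these 21 were called higher in DMSO embryos too, and a difference between the treatments was called for 0 of the 21 by limma or edgeR and for 2 by DESeq2. At an unadjusted limma p under 0.05 it would be 13. Their median levels were 1.28 and 1.44 CPM at 64 cells, and 1.89 and 6.26 CPM at 112 cells. The remaining 10 genes were not called higher in either treatment without the block. With it 6 of them were called higher in U0126 embryos and 1 in DMSO embryos.

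Transcripts that were almost absent at 64 cells made up 31 of the 65 genes, with a mean under 1 CPM in DMSO embryos and 0 to 24 reads in a library, where 1.16% of the 9561 genes were that low. The rule admitted 22 of these 31 only through their low level at 64 cells, so nothing is read from the share. At 112 cells these 31 genes had means of 0.618 to 47.2 CPM in DMSO embryos, and 10 of them were at or over 10 CPM. KH.C7.67 had the largest rise in DMSO embryos. It stood at 0.0681, 0.428 and 0.126 CPM in DMSO embryos at 64 cells, which is 1, 6 and 2 reads, and at 24.8, 40.6 and 76.3 CPM at 112 cells (log2 change 7.42, SE 0.76, limma adjusted p = 7.20e-05). In U0126 embryos it stood at 0.0767, 0.894 and 1.34 CPM and then at 105, 94.9 and 120 CPM (log2 change 7.56, SE 0.76, limma adjusted p = 6.53e-05). At 112 cells the U0126 libraries lay above the DMSO libraries, and the DMSO libraries were widely spread, with replicate 3 highest.

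Several other genes followed the same course. KH.C1.120 had 2, 5 and 0 reads in DMSO embryos at 64 cells, where a count of 0 allows up to 3 reads, counting error only. It stood at 15.3, 18.7 and 26.5 CPM in DMSO embryos at 112 cells (log2 change 6.68, SE 0.59, limma adjusted p = 2.71e-05) and at 51.9, 40.3 and 65.7 CPM in U0126 embryos. KH.C14.377 had 1, 2 and 0 reads in DMSO embryos at 64 cells and stood at 10.7, 14.6 and 13.6 CPM in DMSO and at 31.0, 27.1 and 32.4 CPM in U0126 embryos at 112 cells. KH.C8.649 stood at 9.09, 10.6 and 22.2 CPM in DMSO and at 30.5, 23.8 and 41.5 CPM in U0126 embryos at 112 cells, and KH.S1440.1 at 20.6, 30.4 and 57.8 CPM and at 94.1, 72.6 and 131 CPM. In KH.C1.120, KH.C8.649, KH.S1440.1, KH.S423.6, KH.C4.239 and KH.C7.67 replicate 3 was the highest DMSO library at 112 cells, and in KH.C14.377 replicate 2 was. This order was not general in the set. Over the 65 genes the highest DMSO library was replicate 1 in 20, replicate 2 in 22 and replicate 3 in 23, and replicate 3 was the lowest in 29. The groups of the 6 genes listed first did not overlap at 112 cells, which held for 58 of the 65 and for 6.55% of the 9561 genes. Since the rule used this contrast, nothing is read from it.

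Genes already present at 64 cells included those with the highest CPM in the set. KH.L116.92 stood at 128, 153 and 123 CPM in DMSO and at 311, 280 and 336 CPM in U0126 embryos at 112 cells. KH.L116.38 stood at 121, 148 and 127 CPM and at 296, 276 and 337 CPM. KH.S654.3 stood at 148, 170 and 143 CPM and at 299, 275 and 316 CPM. In all 3 genes the U0126 replicates kept one order, with replicate 3 highest and replicate 2 lowest, and pair 2 had the smallest ratio, at 1.82, 1.86 and 1.62. Their 64-cell means in DMSO embryos were 47.3 ± 7.41, 22.3 ± 0.867 and 45.9 ± 3.39 CPM (SD, n = 3). All 3 rose between the stages in DMSO embryos, by log2 changes of 1.49, 2.53 and 1.72 (SE 0.15, 0.14 and 0.14; limma adjusted p = 8.00e-05, 1.42e-06 and 1.20e-05). How the authors' counting treated near-identical gene copies is not given in the sources used here, and whether these 3 share reads was not tested.

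KH.C3.316 stood at 17.7, 16.1 and 6.51 CPM in DMSO embryos at 64 cells and at 105, 102 and 83.8 CPM at 112 cells (log2 change 2.94, SE 0.38, limma adjusted p = 0.000450). With U0126 it stood at 22.7, 19.8 and 9.16 CPM and at 219, 182 and 217 CPM. Replicate 3 was the lowest at 64 cells in both treatments. KH.C11.4 stood at 8.72, 11.3 and 9.35 CPM in DMSO embryos at 64 cells and at 58.3, 58.8 and 52.5 CPM at 112 cells (log2 change 2.503, SE 0.25, limma adjusted p = 5.63e-05). In U0126 embryos it reached 171, 123 and 215 CPM at 112 cells, so the treated libraries were more widely spread than the controls and still did not overlap with them.

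A smaller number of genes changed little or fell in DMSO embryos. KH.C1.787 was the 1 gene of the set called lower between the stages in DMSO embryos. It stood at 263, 315 and 312 CPM in DMSO embryos at 64 cells and at 181, 177 and 89.5 CPM at 112 cells (log2 change -1.08, SE 0.27, limma adjusted p = 0.0327). In U0126 embryos it stood at 266, 364 and 310 CPM and at 288, 318 and 290 CPM, with a log2 change of 0.01 (SE 0.27, limma adjusted p = 0.997). Treated embryos at 112 cells were thus at the level of both 64-cell groups, and the controls below it. The fall in DMSO embryos was -0.69 (SE 0.15, limma adjusted p = 0.0179) without DMSO replicate 3 at 112 cells. It lost its call, at a limma adjusted p of 0.0507 to 0.119, without any 1 of the 64-cell DMSO libraries, any 1 of the 112-cell U0126 libraries or U0126 replicate 3 at 64 cells, and over its alternatives the adjusted p was 0.00114 to 0.119. The difference between the treatments in this change was not called.

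KH.C10.246 stood at 67.8, 123 and 76.8 CPM in DMSO embryos at 64 cells and at 66.7, 101 and 43.9 CPM at 112 cells. With U0126 it stood at 70.3, 136 and 80.6 CPM and at 146, 206 and 187 CPM. Replicate 2 was the highest in all 4 groups, and neither stage change was called (log2 change -0.40 in DMSO embryos, SE 0.36, limma adjusted p = 0.567, and 1.03 in U0126 embryos, SE 0.36, limma adjusted p = 0.138). With the replicate block the change in U0126 embryos was called (limma adjusted p = 0.0162). KH.C14.148 stood at 5.52, 4.78 and 4.80 CPM in DMSO embryos at 64 cells and at 4.83, 1.69 and 3.11 CPM at 112 cells, and at 7.76, 3.99 and 5.84 CPM in U0126 embryos at 112 cells, where the groups overlapped. KH.C2.125 stood at 38.2, 38.3 and 33.6 CPM in DMSO and at 69.3, 60.8 and 64.5 CPM in U0126 embryos at 112 cells. Its DMSO level changed by a log2 value of -0.15 between the stages (SE 0.14, limma adjusted p = 0.569).

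KH.S643.6, chosen here after its values were seen, was flat in the controls and higher in treated embryos. It stood at 25.0, 28.0 and 20.4 CPM in DMSO embryos at 64 cells and at 29.4, 30.5 and 23.8 CPM at 112 cells (log2 change 0.17, SE 0.16, limma adjusted p = 0.599). With U0126 it stood at 27.2, 30.4 and 26.8 CPM and at 58.3, 61.9 and 59.4 CPM (log2 change 1.16, SE 0.16, limma adjusted p = 0.000916). KH.L154.32 stood at 1.63, 1.14 and 1.07 CPM in DMSO embryos at 64 cells and at 2.44, 2.91 and 4.14 CPM at 112 cells. In U0126 embryos it stood at 1.69, 0.372 and 0.775 CPM and at 9.61, 11.6 and 11.3 CPM (log2 change 3.71, SE 0.42, limma adjusted p = 0.000169). For KH.S643.6 and KH.L154.32 the difference between the treatments in this change was not called (limma adjusted p = 0.364 for each). With the replicate block the limma adjusted p was 0.0811 and 0.180. Of the 21 fits run, 2 called it for each gene. KH.C5.232 stood at 1.07, 1.38 and 2.35 CPM in DMSO and at 5.03, 6.70 and 7.05 CPM in U0126 embryos at 112 cells.

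DMSO replicate 3 at 112 cells departed from its group in both directions within the set. It was at most 0.5 times the mean of replicates 1 and 2 in 8 genes, or 12.3%, where 10.6% of the 9561 genes were. It was at least 1.5 times that mean in 15 genes, or 23.1%, where 20.8% of the 9561 genes were. Both shares were near those of all genes. In the 8 low genes the median ratio was 7.08 in pair 3, against 2.63 in pair 1 and 2.45 in pair 2. The rule asked for at least 1.5-fold in every pair, so it fixed in advance that these 8 passed in pairs 1 and 2. KH.C1.274 stood at 16.04, 15.8 and 1.98 CPM in DMSO and at 40.4, 46.2 and 45.9 CPM in U0126 embryos at 112 cells. Its ratio was 2.52, 2.92 and 23.2 in pairs 1, 2 and 3. In KH.C11.417 that DMSO library held 1 read against 40 in its pair, a ratio of 32.2 with an exact 95% interval of 5.46 to 1303, and in KH.C4.102, both chosen here after their values were seen, it held 2 reads against 50, a ratio of 20.1 with an interval of 5.29 to 171. In the 15 high genes the median ratio was 2.01 in pair 3, 3.39 in pair 1 and 2.39 in pair 2, and 12 of the 15 were at least 2-fold higher at 112 than at 64 cells in DMSO embryos.

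The set has no sharp edge. KH.L170.38, just inside the 1.5-fold threshold, stood at 3.70, 3.37 and 2.73 CPM in DMSO and at 7.24, 5.12 and 5.38 CPM in U0126 embryos at 112 cells, with a smallest pair ratio of 1.52. KH.C12.390 and KH.L18.129 had smallest pair ratios of 1.54 and 1.55. Just outside, KH.C1.728 stood at 37.2, 55.7 and 109 CPM in DMSO and at 121, 99.5 and 163 CPM in U0126 embryos, with ratios of 3.24 and 1.78 in pairs 1 and 2 and 1.49 in pair 3. KH.C13.116 and KH.C1.1294 had smallest pair ratios of 1.49 and 1.48. Each of these 3 genes met every other condition.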

How the data were processed

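RNA of whole embryos was sequenced in 12 libraries. Per the labels' protocols each came from 300 embryos with a stranded mRNA kit. For each stage the authors deposited a table with a signal column per library, the read counts normalized to library size, and a regularized log2 column per library (per the file headers). TopHat2 2.9.8b and DESeq 1.8.1 are named in the submitters' processing notes. Read counter, strand setting and build were not given in the sources used here, so overlapping genes, antisense genes and gene copies are uncertain. In every library 100% of values were whole multiples of the smallest (tolerance 0.01), so reads were recovered by division. CPM is a column divided by its total, times 1000000.

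The main test, run in R 4.3.3, was limma 3.58.1 with a variance trend, applied to values of log2(normalized count + 1). Genes needed a normalized count of 10 in 3 libraries, and the adjusted p threshold was 0.05. Treatment effects were fitted on 6 libraries per stage. Stage changes and the difference of effects were fitted on all 12 libraries after joint median-of-ratios scaling. edgeR 4.0.16 and DESeq2 1.42.0 on recovered reads, pseudocounts of 0.5 and 8, no filter, the replicate block and leaving out each library were alternatives. Limma and edgeR without the block were tested on simulated counts that had no effect shared by same-number libraries. DESeq2 and the fits with the replicate block were not tested in this way.

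Same-number libraries deviated together across genes (r = 0.451 to 0.833 within a stage, n = 6 pairs, and 0.380 to 0.790 across stages, n = 12 pairs), while other pairs gave -0.527 to -0.034. The rule took libraries of the same number as pairs, and the fits with the replicate block use the same numbers. The main limma fit has no block, so its adjusted p-values do not use the pairing. What same-number libraries have in common is not stated in the labels, and nothing there names separate clutches, so p-values measure the spread between these samples, which may be technical.

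The genes and lists were chosen with earlier results of these data known. Genes named are the 10 with the highest U0126 mean at 112 cells. To these come the 10 with the largest mean log2 ratio in pairs 1 and 2. Also named are the 5 with the largest rise and the 5 with the largest fall or smallest rise in DMSO embryos. The 3 genes on either side of the 1.5-fold threshold complete the list. Others are marked. Lists by gene name were not used, because no identifier matched the name table. Levels reported in CPM are relative to the library total.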

Additional observations from a re-analysis of the deposited data

Results flagged for a closer look

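KH.C2.995 was the 1 gene of the set whose U0126 effect differed between the 64-cell and the 112-cell stage in the main limma test of that difference. In the fits of each stage the log2 effect was -0.01 (SE 0.23) at 64 cells and 2.10 (SE 0.24) at 112 cells, and in the fit of all 12 libraries the difference was 2.11 (SE 0.34), the 1 call of limma among the 65 genes. The values of both stages had chosen the gene, so this is a description. It was higher in 3 of 3 pairs at 112 cells and in 2 of 3 at 64 cells. The call was lost with any 1 of the 12 libraries left out and without the filter on low values, and the difference was then 1.89 to 2.30. It was kept with both other pseudocounts, in edgeR, in DESeq2 and in the fits with the replicate block. In all, 8 of the 21 fits called it.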

How the results depend on the processing

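The number of genes that met the rule was 65. It was 120 with a pair ratio of at least 1.3, 29 with a pair ratio of at least 2, and 90 to 115 with 1 replicate number left out (101 without replicate 1, and 64 of the 90 without replicate 3 were among the 65). On the joint median-of-ratios scale it was 93, of which 63 were among the 65. The number called for U0126 at 112 cells, 17, became 4 with the replicate block in limma and in edgeR, 41 with DESeq2 and 64 with the replicate block without replicate 3, and ran from 0 to 30 with 1 library left out. At 64 cells the 0 called became 9 with the replicate block in limma and in edgeR and 1 with the block without replicate 3, and stayed 0 with any 1 library left out. For the difference between the stages the 1 gene called became 0 without the filter on low values or with any 1 library left out, 7 with DESeq2 and 11 with the replicate block without replicate 3. The counts for the change between the stages stayed within 1.5 times the reported ones in every alternative run: 31 to 36 in DMSO embryos and 51 to 56 in U0126 embryos with 1 library left out, and 41 and 61 with the replicate block. Over all genes the block moved the number called higher at 112 than at 64 cells from 627 to 1153 in DMSO and from 571 to 969 in U0126 embryos. No named gene changed its direction where it had been called. The edgeR fit with the block was chosen after the data were seen. With 3 libraries a group and 29 of the 65 genes under 10 CPM in U0126 embryos at 112 cells, depth limits the low genes.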
